A study of Mus musculus with 8 samples.

Results

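The 36 genes described here mark GABAergic interneurons, the inhibitory neurons of the cortex. They were chosen by symbol, with earlier results of these data known. They make up 36 of the 53379 genes counted by bulk RNA sequencing of the mouse cingulate gyrus. They hold 3 genes for making and packaging GABA, 7 factors shared by the interneuron lineage, 9 genes of the 2 main interneuron lineages, 15 markers of the *Pvalb*, *Sst*, *Vip* and *Lamp5* subclasses, and *Sncg* and *Pnoc*. The study set 4 male wild-type mice (*Mvp*+/+, WT) against 4 male *Mvp*-/- mice (Mvp KO), all without treatment, as biological replicates. In Mvp KO, a gene trap cassette in the first intron of *Mvp*, the gene of the major vault protein, ends the transcript early in every cell, so the loss is not restricted to interneurons. The labels call the tissue cingulate cortex, and the age of these mice is not given in the sources used here. In such bulk tissue, fewer interneurons and less RNA per interneuron cannot be told apart.

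Interneurons release GABA, which the glutamate decarboxylases encoded by *Gad1* and *Gad2* make from glutamate and which the transporter encoded by *Slc32a1* loads into synaptic vesicles. Cortical interneurons arise in the ventral forebrain, under *Dlx* transcription factors, and migrate into the cortex. Those from the medial ganglionic eminence (MGE) depend on *Lhx6* and *Sox6* and become mainly *Pvalb* cells, fast-spiking neurons that target cell bodies, and *Sst* cells, which target dendrites. Those from the caudal ganglionic eminence (CGE) express *Adarb2* and *Prox1* and become mainly *Vip* cells, which often inhibit other interneurons, and *Lamp5* cells, among them the neurogliaform cells of the upper layers.

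The samples held 28456504 to 42854368 counts each, and 16914 genes passed the filter on low counts. Values are given as CPM, counts divided by library size after TMM scaling, and genotypes were compared in edgeR by quasi-likelihood tests, whose p values were adjusted by the Benjamini-Hochberg method over all genes tested and called under 0.05. *Mvp* itself was at 6.81, 7.12, 7.89 and 5.49 CPM in WT and 1.45, 1.44, 2.13 and 1.51 CPM in Mvp KO, with an adjusted p of 0.0162, or 0.00446 without WT replicate 4. It was the single gene called, and in 7 of the 13 alternatives, 6 of which left out another sample, no gene was called. WT replicate 4 stood apart from the others. Its score on the leading principal component of the samples, which took up 46.0% of the variance, was 71.5, and those of the other 7 samples were -20.4 to -2.78. Most results that move with it are given with and without it. Of the tissue's defining markers, those of cortical excitatory neurons were well expressed in all samples, such as *Slc17a7*, the vesicular glutamate transporter, at 1335 to 2731 CPM.

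None of the 36 genes passed the threshold between the genotypes. Of the 36, 35 were tested, and 0 were called (lowest adjusted p = 0.969, edgeR's quasi-likelihood test), beside 0.00591% of all genes tested, a single gene, *Mvp*. At an unadjusted p under 0.05, 3 genes were lower in Mvp KO and 0 were higher. These were *Sst*, *Crhbp* and *Pnoc*. Over all genes this criterion took 1.56%, of which 0.863% were lower and 0.698% higher in Mvp KO. Without WT replicate 4, 0 of the 35 were called, beside 0.00583% of all genes, and 2 had an unadjusted p under 0.05, *Sst* and *Crhbp*, both lower. That criterion then took 1.34% of all genes, with 0.740% lower in Mvp KO.

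The log2 fold changes of Mvp KO over WT were above 0 for 10 of the 35 and below 0 for 25, with a median of -0.053, where the median over all genes tested was about 0 (-2.07e-06). When WT replicate 4 was left out, the split was again 10 above and 25 below, with a median of -0.064. Their extremes were -0.89 for *Crhbp* and 0.48 for *Chodl*. The precision was close to that of other genes, with a median standard error of 0.156 against 0.140 over all genes tested. For 20 of the 35 (57.1%) the 95% interval of the fold change stayed within 1.5-fold in both directions, as it did for 64.5% of all genes, and for 31 (88.6%) within 2-fold, as for 86.7% of all genes. Leaving out WT replicate 4 made these 29 (82.9%, beside 71.4% of all genes) and 33 (94.3%, beside 88.7%). The plot of fold changes with their intervals shows both sets of estimates.

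**Figure D1:**
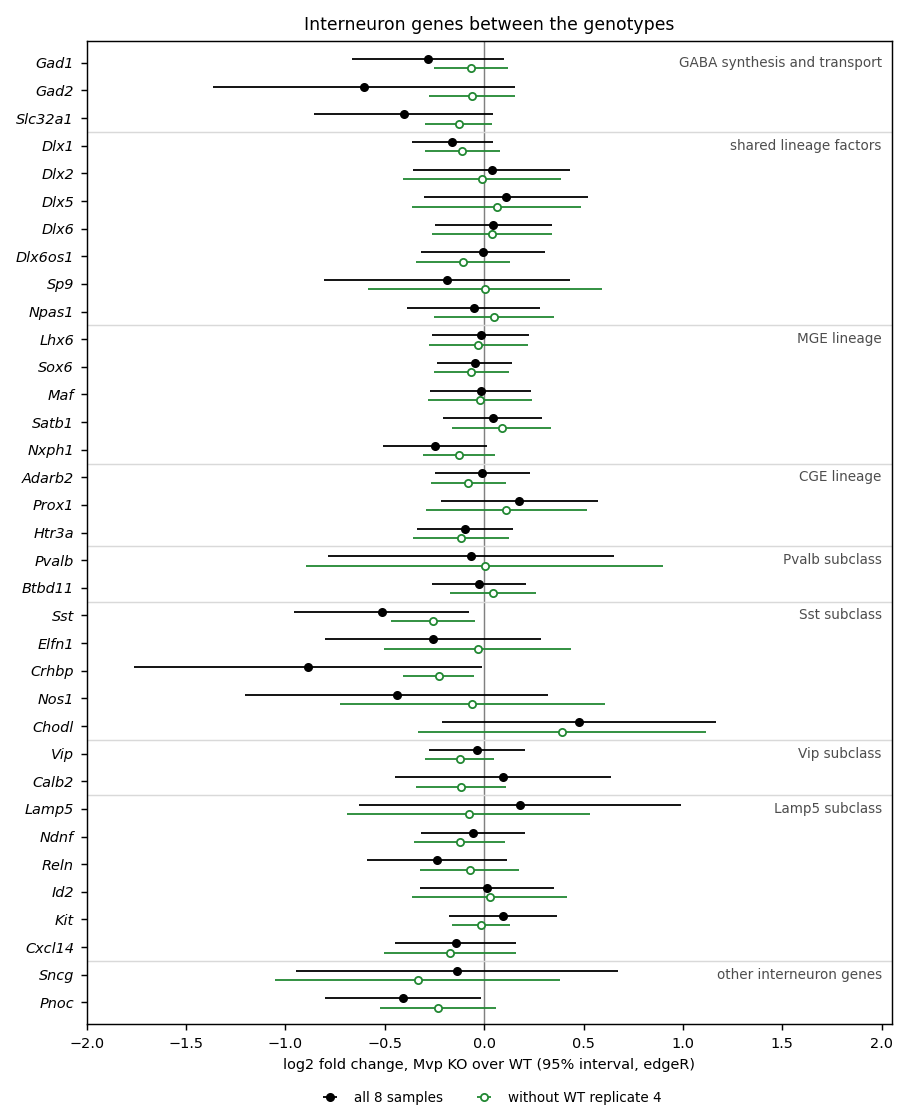
Log2 fold change of Mvp KO over WT on the horizontal axis for the 35 tested genes, grouped by role on the vertical axis, with lines for the 95% interval from edgeR, for all 8 samples (black) and without WT replicate 4 (green). The intervals of *Gad2*, *Crhbp* and *Nos1* are wide with all 8 samples, and those of *Gad2* and *Crhbp* narrow most without WT replicate 4, while those of *Pvalb*, *Chodl* and *Sncg* stay wide.

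The 3 genes for making and packaging GABA did not pass the test between the genotypes, and a single sample held most of their spread. *Gad1* (ENSMUSG00000070880, chromosome 2, 70553072 to 70602014, plus strand of GRCm38, the build of all coordinates here) was at 394, 438, 435 and 694 CPM in WT replicates 1 to 4 and at 368, 443, 427 and 373 CPM in Mvp KO replicates 1 to 4. *Gad2* (ENSMUSG00000026787, chromosome 2, 22622205 to 22693874, plus strand) was at 198, 184, 198 and 545 CPM in WT and 154, 181, 205 and 199.6 CPM in Mvp KO. *Slc32a1* (ENSMUSG00000037771, chromosome 2, 158610767 to 158615748, plus strand) was at 56.2, 62.9, 60.4 and 110.1 CPM in WT and 48.6, 58.3, 55.9 and 55.9 CPM in Mvp KO. In each of the 3, WT replicate 4 was the highest of the 8 samples, and the other WT samples overlapped the Mvp KO samples. The log2 fold changes were -0.28 for *Gad1* (95% interval -0.67 to 0.098), -0.60 for *Gad2* (-1.37 to 0.16) and -0.40 for *Slc32a1* (-0.85 to 0.046). Without WT replicate 4 they were -0.067 (-0.25 to 0.12), -0.060 (-0.28 to 0.16) and -0.13 (-0.30 to 0.042), all less than 1.5-fold away from no difference at either end. WT replicate 4 held 2.76 times the median of the other 7 samples for *Gad2*, 1.96 times for *Slc32a1* and 1.63 times for *Gad1*, so the 2 decarboxylase genes were not raised by the same factor in it. Of the exonic bases of *Slc32a1*, 24.9% lie opposite another gene, *Gm14205*, and the strand setting of the counting is not given in the sources used here.

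**Figure D2:**
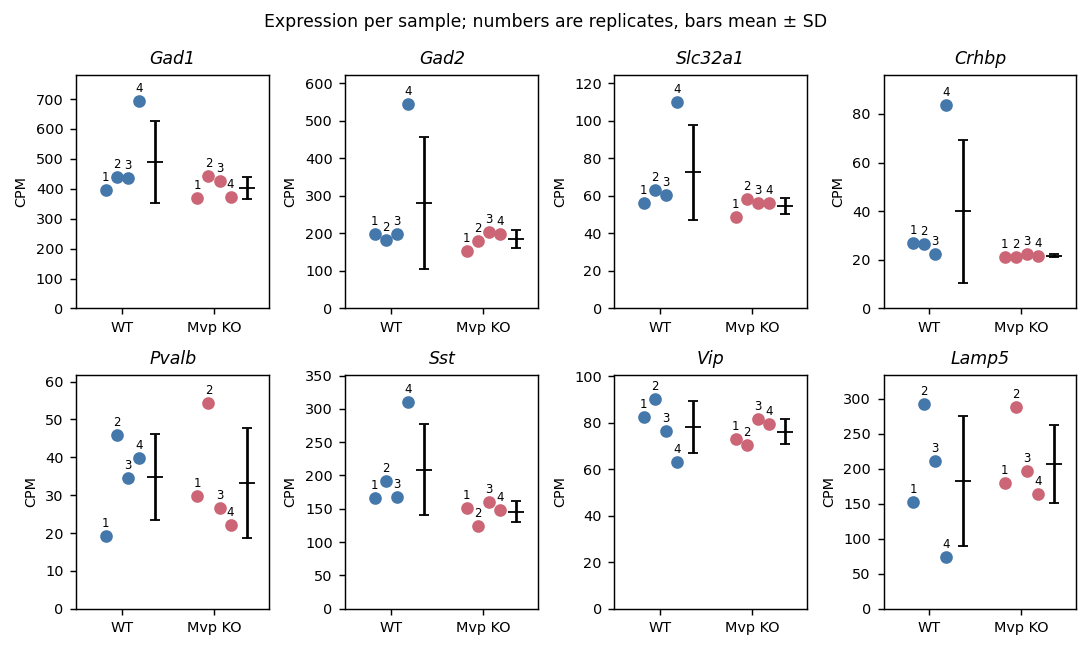
CPM on the vertical axis of 8 genes in each WT and Mvp KO sample, with points numbered by replicate and bars for mean ± SD (n = 4). WT replicate 4 is far above the other samples for *Gad1*, *Gad2*, *Slc32a1*, *Crhbp* and *Sst* and below them for *Vip* and *Lamp5*, and replicate 2 of each genotype is the highest of its group for *Pvalb* and *Lamp5*.

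None of the 7 genes shared across the interneuron lineage passed the test, and WT replicate 4 was the highest sample for 3 of them and the lowest for 1. *Dlx1*, a homeobox factor that adult interneurons keep, was at 25.5, 25.1, 25.2 and 28.7 CPM in WT and 23.6, 20.4, 25.99 and 23.4 CPM in Mvp KO (log2 fold change -0.16, 95% interval -0.36 to 0.042). Its genotypes overlapped through Mvp KO replicate 3, the second highest of the 8. *Dlx2*, *Dlx5* and *Dlx6*, which are most active in the embryo, stayed low, at 2.74 to 4.31 CPM, 2.27 to 3.47 CPM and 4.21 to 5.41 CPM over the 8 samples, with log2 fold changes of 0.038, 0.11 and 0.045. *Dlx6os1*, a long noncoding RNA from the *Dlx5* and *Dlx6* locus, was at 23.4, 22.3, 18.8 and 15.4 CPM in WT and 17.3, 21.7, 19.4 and 21.2 CPM in Mvp KO (log2 fold change -0.0042, 95% interval -0.32 to 0.31). Unlike the GABA genes, it was lowest of all in WT replicate 4. The zinc finger factor *Sp9* ranged from 1.08 to 2.29 CPM and had a log2 fold change of -0.19 (-0.81 to 0.43), and *Npas1*, a repressor of the bHLH-PAS family, from 8.10 to 12.99 CPM with -0.053 (-0.39 to 0.28). Without WT replicate 4 the 7 log2 fold changes lay between -0.11 (*Dlx1*) and 0.062 (*Dlx5*).

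Of the MGE genes, *Lhx6*, the factor that specifies this lineage, was at 20.9, 19.7, 21.6 and 19.9 CPM in WT and 18.1, 17.5, 23.4 and 22.1 CPM in Mvp KO. Its log2 fold change was -0.018 (95% interval -0.26 to 0.22), and WT replicate 4 was in the middle of the 8 samples. *Sox6*, which acts downstream of *Lhx6* in the positioning and maturation of these cells, was the most even member of the group at 22.03 to 26.2 CPM, with a log2 fold change of -0.047 (-0.24 to 0.14). The factor *Maf* ranged from 17.3 to 24.2 CPM with -0.018 (-0.27 to 0.24). *Satb1*, a chromatin organizer that excitatory neurons also express, was at 145, 169.6, 172 and 181 CPM in WT and 155, 208, 166 and 158 CPM in Mvp KO (0.042, -0.21 to 0.29), and its highest sample was Mvp KO replicate 2. *Nxph1*, a secreted ligand of neurexins, was at 46.98, 43.8, 44.7 and 60.5 CPM in WT and 36.5, 44.3, 44.8 and 39.4 CPM in Mvp KO. Its log2 fold change was -0.25 (-0.51 to 0.014) with all samples and -0.13 (-0.31 to 0.054) without WT replicate 4. *Nkx2-1*, which acts in the embryonic MGE and is switched off in most cortical interneurons, had 2, 5, 4 and 0 counts in WT and 8, 1, 2 and 5 counts in Mvp KO and was not tested. A count of 0 is compatible with up to 3 counts at this depth.

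Of the CGE genes, *Adarb2*, an RNA-editing family member that marks this lineage, was at 18.6, 16.1, 17.5 and 13.8 CPM in WT and 15.3, 15.9, 16.97 and 17.5 CPM in Mvp KO, with a log2 fold change of -0.0086 (95% interval -0.25 to 0.23). *Prox1*, a homeobox factor needed for CGE cells to mature, was at 13.9, 14.6, 15.5 and 11.9 CPM in WT and 21.1, 17.00, 12.3 and 12.8 CPM in Mvp KO (0.18, -0.22 to 0.57), and Mvp KO replicate 1 was its highest sample. *Htr3a*, a subunit of the ionotropic serotonin receptor, ranged from 9.07 to 12.1 CPM (-0.095, -0.34 to 0.15). *Adarb2* and *Prox1* were lowest of the 8 in WT replicate 4. The summed level of the CGE genes was 36.2 CPM in that sample against 40.5 to 46.3 CPM in the other 7, while the sum of the MGE genes was 306 CPM in it against 255 to 319 CPM, inside the range of the others. Most of the MGE sum came from *Satb1*, which excitatory neurons also express, so it is not a measure of the MGE lineage alone.

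*Pvalb* (ENSMUSG00000005716, chromosome 15, 78191114 to 78206400, minus strand), the calcium-binding protein of fast-spiking cells, was at 19.2, 45.8, 34.6 and 39.8 CPM in WT and 29.7, 54.4, 26.6 and 22.2 CPM in Mvp KO. The genotypes overlapped over almost the whole range, and the highest sample was 2.83 times the lowest, with both extremes outside WT replicate 4. The log2 fold change was -0.068 with a 95% interval of -0.79 to 0.65, and 0.0018 (-0.90 to 0.90) without WT replicate 4. Both intervals reach beyond 1.5-fold in each direction, so a difference of that size in *Pvalb* was not detectable here. *Btbd11*, a synaptic protein enriched in interneurons, was steadier, at 34.1, 35.8, 35.6 and 41.9 CPM in WT and 29.8, 40.2, 37.3 and 37.4 CPM in Mvp KO (-0.026, 95% interval -0.26 to 0.21).

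With all 8 samples, the lowest p value of the 35 genes was that of *Sst*. *Sst* (ENSMUSG00000004366, chromosome 16, 23889573 to 23890958, minus strand), which encodes the inhibitory peptide somatostatin, was at 166, 191, 167 and 309.8 CPM in WT and 151, 124, 159.9 and 149 CPM in Mvp KO. Each WT sample was above each Mvp KO sample, although WT replicates 1 and 3 and Mvp KO replicate 3 lay close together. The log2 fold change was -0.52 (standard error 0.20, 95% interval -0.96 to -0.074, unadjusted p = 0.0267, adjusted p = 0.969). Without WT replicate 4 it was -0.26 (-0.47 to -0.047, unadjusted p = 0.0215, adjusted p = 0.99994).

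*Crhbp* (ENSMUSG00000021680, chromosome 13, 95431371 to 95444924, minus strand), a secreted protein that binds corticotropin-releasing hormone, was at 26.9, 26.6, 22.4 and 83.8 CPM in WT and 21.2, 21.2, 22.5 and 21.4 CPM in Mvp KO. The 4 Mvp KO samples were nearly alike, with an SD of 0.620 CPM, and WT replicate 3 fell just below Mvp KO replicate 3, so the groups overlapped. The log2 fold change was -0.89 (standard error 0.39, unadjusted p = 0.0477, adjusted p = 0.969), and -0.23 (unadjusted p = 0.0174, adjusted p = 0.99994) without WT replicate 4, which held 3.73 times the median of the other 7 samples.

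*Nos1*, the neuronal nitric oxide synthase of long-range projecting *Sst* cells and of some other neurons, was at 87.4, 50.02, 59.03 and 144 CPM in WT and 51.9, 42.6, 68.6 and 87.7 CPM in Mvp KO. It varied widely in both genotypes, and its log2 fold change was -0.44 (-1.20 to 0.32), or -0.060 (-0.73 to 0.61) without WT replicate 4. *Chodl*, which marks the same long-range cells, was near the limit of detection with 17 to 44 counts a sample, at 0.415 to 1.16 CPM (0.48, -0.21 to 1.17). It did not share the high value of *Nos1* in WT replicate 4, where it was second lowest of the 8. *Elfn1*, a synaptic adhesion protein at excitatory inputs onto *Sst* cells, was at 19.6, 18.4, 17.8 and 31.2 CPM in WT and 14.7, 13.1, 19.6 and 25.2 CPM in Mvp KO (-0.26, -0.80 to 0.28). Without WT replicate 4 the log2 fold change of *Elfn1* was -0.033.

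*Vip* (ENSMUSG00000019772, chromosome 10, 5639218 to 5647617, plus strand), the gene of vasoactive intestinal peptide, was at 82.6, 90.2, 76.6 and 63.3 CPM in WT and 72.8, 70.4, 81.8 and 79.6 CPM in Mvp KO. It was the steadiest of the 4 subclass peptides and proteins, with WT replicate 4 as its lowest sample, and its log2 fold change was -0.038 (95% interval -0.28 to 0.20), or -0.12 (-0.30 to 0.051) without that sample. *Calb2*, the calcium-binding protein calretinin, which many *Vip* cells hold, was at 19.5, 15.7, 15.9 and 7.43 CPM in WT and 17.1, 14.5, 15.3 and 15.7 CPM in Mvp KO. WT replicate 4 was 2.12-fold below the median of the other 7 samples, and the log2 fold change of *Calb2* went from 0.096 with it to -0.12 without it, neither past the test.

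*Lamp5* (ENSMUSG00000027270, chromosome 2, 136052239 to 136069917, plus strand), a lysosome-associated membrane protein that also has expression in other cortical neurons, was at 152, 293, 212 and 74.04 CPM in WT and 179, 288, 197 and 164 CPM in Mvp KO. WT replicate 4 was the lowest sample, 2.67-fold below the median of the other 7, and replicate 2 was the highest of each genotype. The log2 fold change was 0.18 (-0.63 to 0.99) and -0.079 (-0.69 to 0.53) without WT replicate 4. *Reln*, the secreted protein of layer 1 and of many *Lamp5* and *Sst* cells, was at 84.3, 78.8, 81.4 and 120.2 CPM in WT and 63.1, 72.3, 84.4 and 89.5 CPM in Mvp KO (-0.24, -0.59 to 0.11), highest in WT replicate 4. *Ndnf*, a secreted marker of layer 1 neurogliaform cells, ranged from 18.7 to 26.9 CPM (-0.056, -0.32 to 0.20). *Kit*, a receptor tyrosine kinase, was at 52.3 to 59.4 CPM in 7 samples and at 39.2 CPM in WT replicate 4 (0.097, -0.18 to 0.37). Without WT replicate 4 the log2 fold change was -0.073 for *Reln* and -0.016 for *Kit*.

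*Id2*, an inhibitor of bHLH factors that is not restricted to interneurons, was at 103, 129.9, 124 and 123 CPM in WT and 124, 158, 106 and 94.9 CPM in Mvp KO (0.012, -0.32 to 0.35). *Cxcl14*, a chemokine of CGE cells, was at 53.7, 72.95, 54.2 and 55.1 CPM in WT and 46.3, 65.9, 51.7 and 49.9 CPM in Mvp KO (-0.14, -0.45 to 0.16). Both were highest in replicate 2 of each genotype, as was *Lamp5*. The 6 genes grouped under *Lamp5* therefore did not follow each other in WT replicate 4, which was lowest for *Lamp5*, *Ndnf* and *Kit*, highest for *Reln*, and in the middle for *Id2* and *Cxcl14*.

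*Pnoc* (ENSMUSG00000045731, chromosome 14, 65400673 to 65425472, minus strand), the precursor of the peptide nociceptin, was at 6.05, 6.66, 6.28 and 9.56 CPM in WT and 5.64, 5.99, 5.42 and 4.42 CPM in Mvp KO. Every WT sample was above every Mvp KO sample, by a narrow margin between WT replicate 1 and Mvp KO replicate 2. The log2 fold change was -0.41 (standard error 0.18, unadjusted p = 0.0439, adjusted p = 0.969), and -0.23 (unadjusted p = 0.105, adjusted p = 0.99994) without WT replicate 4. *Sst* and *Pnoc* were the only 2 of the 35 whose genotypes did not overlap with all 8 samples, both lower in Mvp KO and 0 higher, where 1.52% of all genes did not overlap (0.692% lower and 0.828% higher in Mvp KO). WT replicate 4 was the highest WT sample for both, so leaving it out could not make them overlap. *Sncg*, gamma-synuclein, which marks a small class of *Cck* interneurons, was low and uneven, at 2.09, 2.79, 2.10 and 1.08 CPM in WT and 3.14, 1.28, 1.58 and 1.33 CPM in Mvp KO (-0.14, -0.95 to 0.67). Without WT replicate 4 the log2 fold change of *Sncg* was -0.33.

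Set beside each other per kilobase of exon, the means of the 4 subclass markers were in the order *Sst*, *Lamp5*, *Pvalb*, *Vip* in both genotypes. The divisor was all annotated exonic bases of a gene, 1041 for *Pvalb* and 3402 for *Vip*, and not the length of the transcripts expressed. The order depends on it, since in CPM *Vip* was above *Pvalb* in every sample. Their levels in CPM per kilobase were 289 ± 95.02 in WT and 202 ± 21.7 in Mvp KO for *Sst*, 62.3 ± 31.6 in WT and 70.6 ± 18.9 in Mvp KO for *Lamp5*, 33.5 ± 10.9 in WT and 31.9 ± 13.9 in Mvp KO for *Pvalb* and 22.98 ± 3.34 in WT and 22.4 ± 1.59 in Mvp KO for *Vip* (SD, n = 4 each). *Sst* was far above the others, whereas *Lamp5*, *Pvalb* and *Vip* in WT, and *Pvalb* and *Vip* in Mvp KO, lay within an SD of their neighbours. On the same scale *Gad1* was at 64.2 ± 17.95 in WT and 52.7 ± 4.95 in Mvp KO and *Gad2* at 47.8 ± 29.9 in WT and 31.5 ± 3.90 in Mvp KO. The lowest tested genes were *Chodl*, at 0.126 ± 0.0463 in WT and 0.175 ± 0.0379 in Mvp KO, and *Sp9*, at 0.331 ± 0.109 in WT and 0.290 ± 0.0655 in Mvp KO. These are levels of RNA in the tissue and not numbers of cells.

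The balance between subclasses was compared as the log2 ratio of the counts of 2 markers within a sample, which does not depend on library scaling, for the 6 pairs of *Pvalb*, *Sst*, *Vip* and *Lamp5*. The exact two-sided permutation test over the 70 arrangements of the 8 samples has a smallest possible p of 0.0286, so after adjustment a ratio could pass only if at least 4 of the 6 reached that p. None did. The lowest p was that of *Sst* over *Vip*, with ratios of 1.01, 1.09, 1.12 and 2.29 in WT and 1.05, 0.81, 0.97 and 0.90 in Mvp KO. The mean difference of Mvp KO minus WT was -0.44 (exact permutation p = 0.0571, adjusted over the 6 ratios p = 0.343), with Mvp KO replicate 1 inside the range of WT, and it was -0.14 without WT replicate 4. For *Sst* over *Lamp5* the difference was -0.79 (exact permutation p = 0.371, adjusted p = 0.729), and -0.20 without WT replicate 4. *Pvalb* over *Sst* differed by 0.39 (exact permutation p = 0.457, adjusted p = 0.729) and *Vip* over *Lamp5* by -0.34 (exact permutation p = 0.486, adjusted p = 0.729), or by 0.27 and -0.061 without WT replicate 4. *Pvalb* over *Lamp5* differed by -0.40 (exact permutation p = 0.686, adjusted p = 0.823) and *Pvalb* over *Vip* by -0.057 (exact permutation p = 0.886), and both changed sign without WT replicate 4, to 0.066 and 0.13.

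**Figure D3:**
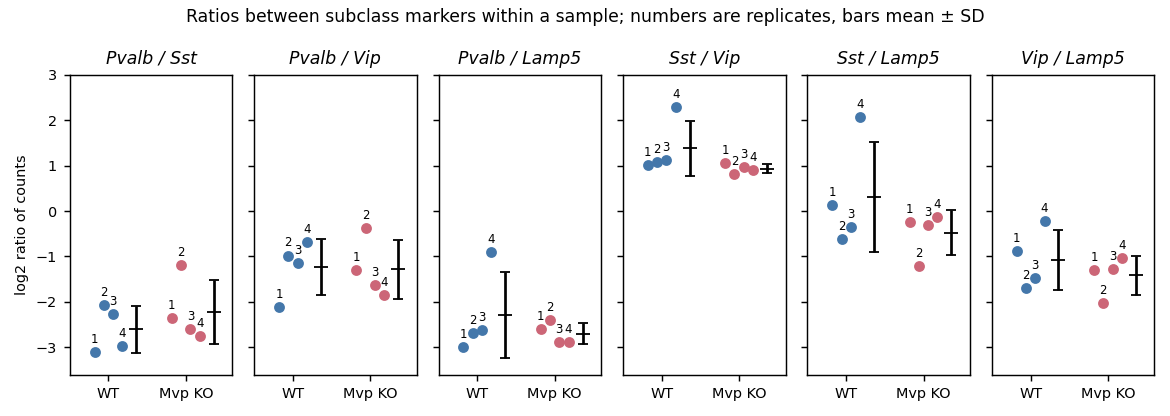
Log2 ratio of the counts of 2 subclass markers within a sample on the vertical axis, for the 6 pairs and for WT and Mvp KO, with points numbered by replicate and bars for mean ± SD (n = 4). WT replicate 4 is the highest sample for *Pvalb* over *Lamp5*, *Sst* over *Vip*, *Sst* over *Lamp5* and *Vip* over *Lamp5*, and the other samples of the genotypes lie in overlapping ranges.

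*Pvalb* over *Lamp5* was narrow in 7 samples, from -2.99 to -2.40 on the log2 scale, and -0.90 in WT replicate 4. In those 7 samples the 2 genes were high together in replicate 2 of WT and of Mvp KO and low together in WT replicate 1 and Mvp KO replicate 4. *Syt2*, the calcium sensor of *Pvalb* cell terminals, which is not among the 36, had its highest Mvp KO value in replicate 2 and its lowest values in WT replicate 1 and Mvp KO replicate 4, at 16.96, 63.9, 44.02 and 70.2 CPM in WT and 25.9, 83.6, 35.5 and 24.5 CPM in Mvp KO. It was picked from a list of 7 other *Pvalb* genes, which did not follow the pattern throughout. That list summed to 202, 295, 248 and 364 CPM in WT and 213, 298, 225 and 232 CPM in Mvp KO, lowest of Mvp KO in replicate 1. *Btbd11* was also lowest in Mvp KO replicate 1 and not in replicate 4. *Nos1* had the opposite extremes among the 7 samples, with its lowest values in replicate 2 of each genotype and its highest in WT replicate 1 and Mvp KO replicate 4. This pattern crosses the genotypes, and it was seen after the values were known, so it is a description of these animals.

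WT replicate 4 set the widest deviations of the group. It was at least 2-fold above the median of the other 7 samples for 3 of the 35 genes, *Crhbp*, *Gad2* and *Nos1*, and at least 2-fold below it for 2, *Lamp5* and *Calb2*, beside 4.19% and 5.79% of all genes tested. It was the highest of the 8 samples for 14 of the 35 and the lowest for 9, beside 29.2% and 32.5% of all genes. *Sst* was 1.94 times and *Elfn1* 1.70 times the median of the others, while the 5 tested genes of the MGE lineage were at 0.955 (*Lhx6*), 0.976 (*Sox6*), 1.01 (*Maf*), 1.09 (*Satb1*) and 1.37 (*Nxph1*) times. The map of deviations by sample shows this pattern. Among the other 7 samples, 4 of the 35 genes spanned at least 2-fold from the lowest to the highest, *Pvalb*, *Chodl*, *Sncg* and *Nos1*.

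**Figure D4:**
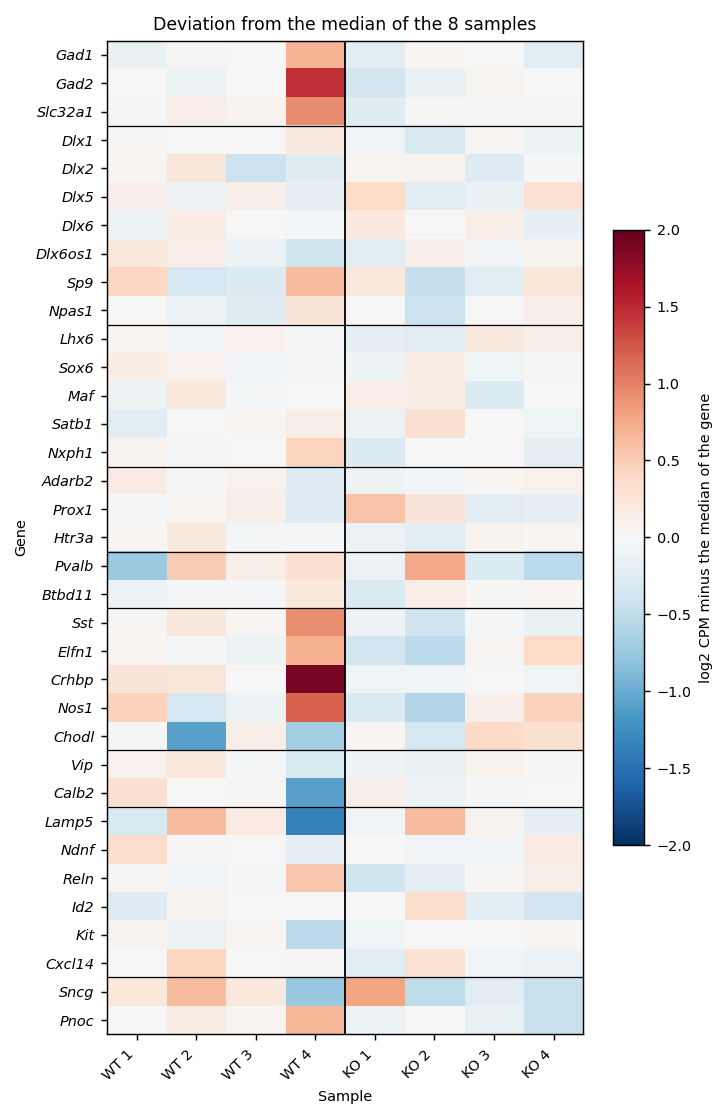
Log2 CPM minus the median of the gene over the 8 samples, in colour from -2 (blue) to 2 (red), for the 35 tested genes as rows and the samples as columns, with horizontal lines between the groups of genes in the order GABA synthesis and transport, shared lineage, MGE, CGE, *Pvalb*, *Sst*, *Vip* and *Lamp5* subclass and others, and a vertical line between the genotypes. WT replicate 4 has the darkest cells in both directions, red for *Gad2*, *Crhbp* and *Nos1* and blue for *Lamp5* and *Calb2*, and its cells in the MGE rows run from pale for *Lhx6*, *Sox6* and *Maf* to light red for *Nxph1*.

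Since *Sst* and several other members were high in the same sample, the sequence before the start site is shown for the 5 members highest above the others in WT replicate 4, whether or not it holds the motif searched for. Genes and motif were chosen after the values were known. The cAMP response element, TGACGTCA, is the site bound by CREB, a factor that acts when cAMP or calcium rises in a neuron, and its core is TGACG, which reads CGTCA where it lies on the other strand. The whole element holds both. Sequences are from RefSeq on GRCm38.p6, from 250 bases before to 50 after the start site, 5′ to 3′ on the strand of the gene, with each core in capitals. *Sst* lies at chr16:23890795-23891094, minus strand, *Crhbp* at chr13:95444782-95445081, minus strand, *Gad2* at chr2:22622077-22622376, plus strand, *Nos1* at chr5:117866589-117866888, plus strand and *Slc32a1* at chr2:158610508-158610807, plus strand, which holds no core. The *Nos1* window is at a start site inside the annotated gene, which begins at base 117781032.
Sst: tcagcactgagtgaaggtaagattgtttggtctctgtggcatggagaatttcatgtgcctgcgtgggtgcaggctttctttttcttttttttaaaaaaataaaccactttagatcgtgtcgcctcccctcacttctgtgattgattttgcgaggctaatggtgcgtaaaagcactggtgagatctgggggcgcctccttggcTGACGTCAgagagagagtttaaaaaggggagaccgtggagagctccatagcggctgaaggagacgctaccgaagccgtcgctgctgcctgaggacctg
Crhbp: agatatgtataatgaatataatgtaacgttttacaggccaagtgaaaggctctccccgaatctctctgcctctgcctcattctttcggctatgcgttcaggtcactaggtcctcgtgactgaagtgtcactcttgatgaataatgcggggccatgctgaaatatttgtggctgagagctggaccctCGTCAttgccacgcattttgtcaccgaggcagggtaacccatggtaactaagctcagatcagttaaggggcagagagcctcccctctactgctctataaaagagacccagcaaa
Gad2: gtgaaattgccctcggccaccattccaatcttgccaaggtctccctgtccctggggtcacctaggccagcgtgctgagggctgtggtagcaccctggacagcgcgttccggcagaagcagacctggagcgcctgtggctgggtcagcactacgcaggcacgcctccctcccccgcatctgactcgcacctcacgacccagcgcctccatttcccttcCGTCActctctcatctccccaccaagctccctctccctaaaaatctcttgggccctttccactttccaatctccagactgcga
Nos1: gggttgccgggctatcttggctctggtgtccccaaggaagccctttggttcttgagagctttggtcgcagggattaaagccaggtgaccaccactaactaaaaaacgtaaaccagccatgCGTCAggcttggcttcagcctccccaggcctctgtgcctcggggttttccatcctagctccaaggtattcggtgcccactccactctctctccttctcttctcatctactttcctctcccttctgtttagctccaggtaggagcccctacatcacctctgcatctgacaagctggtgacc
Slc32a1: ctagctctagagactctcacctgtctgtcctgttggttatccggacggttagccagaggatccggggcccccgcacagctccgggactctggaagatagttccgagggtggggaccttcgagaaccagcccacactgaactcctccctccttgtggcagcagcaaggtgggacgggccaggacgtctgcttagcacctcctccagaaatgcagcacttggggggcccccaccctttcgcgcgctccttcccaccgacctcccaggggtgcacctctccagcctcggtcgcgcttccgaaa

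The whole element was present in 1 of the 29 members with a promoter in RefSeq's table, *Sst*, where it begins at base -48 counted from the start site, and in 2.03% of all genes and 1.79% of all promoters of that table, which have the same length. The core was present in 10 of the 29, against 23% of all genes and 20.8% of all promoters. Besides *Sst*, it began at base -33 in *Gad2*, -64 in *Crhbp*, -130 in *Nos1* and -79 in *Vip*, and it was also found in *Dlx2*, *Dlx6os1*, *Sox6*, *Nkx2-1* and *Sncg*. *Vip*, which holds the core, was lowest in WT replicate 4, and *Gad1*, *Slc32a1* and *Elfn1*, which were high there, hold none in these windows. Like that of *Nos1*, the *Gad1* window, chr2:70561879-70562178, is at a start site inside the annotated gene, which begins at base 70553072. The matches describe letters in a window of 300 bases and were not tested as binding sites. The names without an entry were *Dlx5*, *Dlx6*, *Htr3a*, *Calb2*, *Maf*, *Pnoc* and *Ndnf*.

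A wider list of 35 other genes linked to interneurons was read from the same fit. It takes in genes of GABA reuptake and breakdown and is not restricted to interneurons, so its sums do not measure interneurons alone. Of the 35, 34 were tested and 0 were called, beside 0.00591% of all genes tested. At an unadjusted p under 0.05, which took 1.56% of all genes and 1.34% without WT replicate 4, there was 1 (0 without that sample). This was *Npy*, neuropeptide Y of *Sst* and *Lamp5* cells, at 40.05, 54.00, 43.01 and 184 CPM in WT and 41.1, 36.3, 43.4 and 35.4 CPM in Mvp KO, with a log2 fold change of -1.04 (standard error 0.46, unadjusted p = 0.0499, adjusted p = 0.969) and -0.22 without WT replicate 4. The list's median log2 fold change was -0.20, with 4 genes above 0 and 30 below, and -0.061, with 12 above and 22 below, without WT replicate 4. The genes of GABA reuptake and breakdown summed to 1046 to 1145 CPM in WT and 910.1 to 1088 CPM in Mvp KO, and WT replicate 4 did not stand out among them as it did for *Gad2*. The perineuronal net, the matrix around *Pvalb* cells, did stand out, with *Acan* (aggrecan), *Hapln1* and *Hapln4* summing to 339 CPM in WT replicate 4 and to 106 to 199 CPM in the other 7 samples.

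Markers of other cells moved with some of these values, and their part in the results was not tested. Genes induced by neuronal activity summed to 2933 CPM in WT replicate 4 with 611 to 1209 CPM in WT replicates 1 to 3 and 811 to 1473 CPM in Mvp KO, and all 8 were highest in that sample, *Bdnf* at 599 CPM against 43.4 to 86.9 CPM elsewhere. Their median log2 fold change was -0.057, with 4 above 0 and 4 below. Without WT replicate 4 it was 0.49, with 7 above and 1 below. In that fit 0 were called, and 1 had an unadjusted p under 0.05, higher in Mvp KO, beside 1.34% of all genes in either direction. The 8 markers of striatal projection neurons, which are GABAergic and express *Gad1*, *Gad2* and *Slc32a1*, summed to 312 CPM in WT replicate 4, 162 to 218 CPM in WT replicates 1 to 3 and 171 to 236 CPM in Mvp KO. None of the 8 was at 0 in all samples, and 5 were highest and 2 lowest in WT replicate 4. *Adora2a* and *Ppp1r1b* were highest in WT replicate 4, at 18.4 and 101 CPM against 1.80 to 2.64 CPM and 29.9 to 44.4 CPM, while *Rarb* was lowest there, at 6.51 CPM against 7.76 to 10.1 CPM. The dopamine receptor genes *Drd1* and *Drd2* were at 20.3, 10.3, 18.99 and 24.4 CPM and at 2.01, 0.622, 1.35 and 1.52 CPM in WT replicates 1 to 4. The 8 markers of excitatory neurons summed to 5815 to 6510 CPM in WT and 5073 to 6433 CPM in Mvp KO, and 5 of the 8 were highest and 2 lowest in WT replicate 4, which was highest for 29.2% and lowest for 32.5% of all genes. Oligodendrocyte markers summed to 5935 and 4062 CPM in Mvp KO replicates 1 and 2 and to 2070 and 1616 CPM in replicates 3 and 4, against 1385 to 2958 CPM in WT, and all 8 had log2 fold changes above 0, with 0 called.

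Markers of astrocytes summed to 5557 to 5922 CPM in WT and 4786 to 5681 CPM in Mvp KO, those of microglia to 363 to 409 and 357 to 372 CPM, and those of endothelial cells to 198 to 293 and 199.8 to 275 CPM. None of these genes was called, and 1 of them, *Aldoc*, had an unadjusted p under 0.05, at 755, 887, 782 and 809.9 CPM in WT and 675, 744, 732 and 727 CPM in Mvp KO (log2 fold change -0.17).

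Across the 8 samples 3 relations were computed on log2 CPM. *Gad2* and the striatal sum were higher in the same samples (Pearson's r = 0.839, exact permutation p = 0.00818, adjusted over the 3 p = 0.0246; Spearman's rho = 0.881, exact permutation p = 0.00724, adjusted p = 0.0217). Without WT replicate 4 and Mvp KO replicate 1, the 2 farthest from the median of *Gad2*, r was 0.787. Leaving out WT replicate 4 alone gave r = 0.668 (exact permutation, adjusted p = 0.119), so the call rested on that sample, and it was also lost without Mvp KO replicate 2 (r = 0.834, exact permutation, adjusted p = 0.0512) or replicate 3 (r = 0.878, exact permutation, adjusted p = 0.0607). For Spearman's rho the call was lost without WT replicate 3 or 4 or Mvp KO replicate 3 or 4 (rho = 0.821, exact permutation, adjusted p = 0.102 in each). *Gad1* and *Gad2* had r = 0.934 (exact permutation p = 0.0628, adjusted p = 0.0942) and rho = 0.286 (exact permutation p = 0.501), and without WT replicate 4 and Mvp KO replicate 1 r was -0.52, so the relation of the 2 decarboxylase genes rested on those samples. *Lhx6* and *Adarb2*, the markers of the MGE and the CGE, had r = 0.537 (exact permutation p = 0.178, adjusted p = 0.178) and rho = 0.619 (exact permutation p = 0.115, adjusted p = 0.172), with r = 0.630 without Mvp KO replicates 2 and 3. Within a genotype, 4 samples were too few for a value.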

How the data were processed

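The table holds counts per gene for the 8 cingulate samples, 4 a genotype, with genotype and replicate number from the labels. The authors made these counts from single-end reads of stranded polyA libraries with cutadapt 1.10, bowtie 2.2.8 (removal of ribosomal and spike-in reads), STAR 2.5.3a (genome mm10) and HTSeq 0.6.1p1 (Ensembl genes), and deposited them raw; the mode and strand setting of the counting are not given in the sources used here. Symbols came from GENCODE vM21, which holds 53274 of the 53379 identifiers. All 128 symbols looked for were matched; *Dlx6os1* has 2 identifiers, and the longer locus was used, since the other, of 146 bases, had 0 counts. The 36 genes and the lists were chosen with earlier results of these data known, and every one of the 36 is named; other genes were named from their lists by an unadjusted p under 0.05 or after their values were seen, and the values of 1 listed marker gene are not reported here.

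In R 4.3.3, edgeR 4.0.16 (filterByExpr with minimum count 10 and total 15, TMM, robust quasi-likelihood fit, genotype as the single term, Benjamini-Hochberg over 16914 genes) was the main test. It was tested on simulated counts. Ratios used the counts as they were, and adding 0.5 to each count was an alternative. Ratios and relations were tested by exact permutation (SciPy 1.17.1). Alternatives were DESeq2 1.42.0 size factors or Wald test, limma 3.58.1 voom with quality weights, no filter, a replicate block, and leaving out each sample. Depth of 28456504 to 42854368 counts makes counting error small beside the spread between animals (common biological coefficient of variation 18.3%), except for *Nkx2-1*, *Chodl*, *Sp9* and *Sncg*. No 2 samples agreed within sampling noise (chi-square per gene 6.54 to 87.4).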

Additional observations from a re-analysis of the deposited data

Results flagged for a closer look

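In groups of 4 samples, a highest or lowest sample was singled out where its gap to the nearest other over the range of the group was above Dixon's 95% critical value for 4 samples. The groups share samples, and some share genes, so they are not independent and the number expected is only a guide. Of 122 groups tested, 19 were, where chance gives about 1 in 20, or 6.1, and 12 of the 19 were WT replicate 4. That sample was far above the other 3 WT samples in CPM for *Gad1* (694 against 394 to 438), *Gad2* (545 against 184 to 198), *Slc32a1* (110.1 against 56.2 to 62.9), *Dlx1* (28.7 against 25.1 to 25.5), *Elfn1* (31.2 against 17.8 to 19.6), *Crhbp* (83.8 against 22.4 to 26.9) and *Reln* (120.2 against 78.8 to 84.3). It was also above them in the summed CPM of the wider interneuron list (3862 against 2560 to 2673), of the other *Vip* genes (50.5 against 16.7 to 19.7), of the other *Lamp5* genes (79.1 against 34.7 to 37.9) and of a list named for *Cck* interneurons (1266 against 609 to 663), and in the log2 ratio of *Sst* over *Vip* (2.29 against 1.01 to 1.12). The *Cck* list holds *Cck*, *Cnr1* and *Slc17a8*, and 2 of these 3 were highest in WT replicate 4. In that sample this list and the genes of GABA reuptake and breakdown held 1266 and 1145 CPM of the 3862. Which cells these sums came from was not tested. The other *Vip* genes were *Tac2*, *Crh*, *Chat* and *Mybpc1*, and the other *Lamp5* genes were *Sv2c* and *Egln3*. Their sums were high in a sample where *Vip* and *Lamp5* themselves were lowest. Whether they came from the same cells as *Vip* and *Lamp5* was not tested.

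The other 7 were spread over 5 samples. *Cxcl14* was high in WT replicate 2 (72.95 against 53.7 to 55.1 CPM), *Sncg* in Mvp KO replicate 1 (3.14 against 1.28 to 1.58 CPM) and *Mvp* in Mvp KO replicate 3 (2.13 against 1.44 to 1.51 CPM). The wider interneuron list summed low in Mvp KO replicate 1 (2273 against 2516 to 2565 CPM) and the microglia markers in WT replicate 3 (363 against 403 to 409 CPM). *Sst* over *Lamp5* was low in Mvp KO replicate 2 (log2 ratio -1.22 against -0.30 to -0.14). WT replicate 2 had the largest total, 42854368 counts against 33408202 to 34760784.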

How the results depend on the processing

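Of 594 values recomputed for 48 results, 520 stayed on the same side of 0 and of the threshold or within 1.5 times of a count, and no member passed an adjusted p of 0.05 in any of the 13 alternatives (lowest adjusted p 0.846, without a filter on low counts). The number of members with an unadjusted p under 0.05, 3 in the report, was 3 with DESeq2 size factors, 3 without a filter, 2 with DESeq2's Wald test, 2 with voom weights and 0 to 4 with a sample left out (0 without Mvp KO replicate 1 or 4). What samples with the same replicate number have in common is not given in the sources used here. Correlations of their deviations were -0.0067 to 0.287, highest for replicate 2, with 2 of the 8 samples closest to the one of their own number. With a replicate block, 1 member, *Sst*, had an unadjusted p under 0.05, and 0 genes were called over the whole table. That count of genes called, 1 in the report, was 2 with DESeq2's Wald test and 0 to 1 with a sample left out, where only leaving out WT replicate 4 or Mvp KO replicate 3 kept it at 1. Signs turned for 22 members, none past the test. With voom weights these were *Dlx5* (-0.034), *Sp9* (0.039), *Npas1* (0.11), *Lhx6* (0.032), *Prox1* (-0.087), *Btbd11* (0.046), *Elfn1* (0.024), *Nos1* (0.058), *Calb2* (-0.064), *Lamp5* (-0.073), *Id2* (-0.11) and *Kit* (-0.0071), and with the replicate block *Dlx6os1* (0.0081) and *Id2* (-0.0079). With a sample left out, log2 fold changes crossed 0 for *Dlx2* (-0.065 to 0.16), *Dlx6* (-0.0054 to 0.11), *Dlx6os1* (-0.11 to 0.081), *Sp9* (-0.33 to 0.0048), *Npas1* (-0.13 to 0.049), *Lhx6* (-0.095 to 0.043), *Maf* (-0.072 to 0.062), *Satb1* (-0.068 to 0.089), *Adarb2* (-0.081 to 0.051), *Pvalb* (-0.42 to 0.087), *Btbd11* (-0.085 to 0.057), *Vip* (-0.12 to 0.037), *Calb2* (-0.12 to 0.26), *Lamp5* (-0.079 to 0.51), *Ndnf* (-0.12 to 0.052), *Id2* (-0.15 to 0.11), *Kit* (-0.016 to 0.16) and *Sncg* (-0.53 to 0.064). So did the differences in *Pvalb* over *Vip* (-0.36 to 0.13) and *Pvalb* over *Lamp5* (-0.63 to 0.066), while r of *Gad2* with the striatal sum was 0.668 to 0.878 and lost its call without WT replicate 4, Mvp KO replicate 2 or Mvp KO replicate 3. The causes were not tested.

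With 4 animals a genotype, 15 of the 35 tested members had intervals that reached 1.5-fold or more, and *Nkx2-1* had too few counts to test. A ratio could not reach an exact p below 0.0286, or 0.0571 with a sample left out.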
